A study of Mus musculus with 8 samples.

Results

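The cytosolic heat shock proteins and co-chaperones described here are 10 genes chosen by symbol: the small heat shock proteins Hspb1, Hspb6, Hspb7, Hspb8 and Cryab, the inducible Hsp70 genes Hspa1a and Hspa1b, the J-domain protein gene Dnajb1, the exchange factor gene Bag3 and the Hsp110 gene Hsph1. By the platform annotation, a probe of its own measured 9 of the 10 among 19938 genes tested. Hspa1b was measured by 1 probe that it shares with Hspa1a, which is reported separately and is not counted among the 9. The genes were measured in RNA from mouse hearts on the Affymetrix Mouse Gene ST array, with 8 arrays in 4 groups of 2. KO MI hearts lacked MAFbx, a muscle ubiquitin ligase encoded by Fbxo32, and had a myocardial infarct (MI) made by tying off the left coronary artery for good, with RNA taken 1 day later. WT MI hearts were wild type and had the same operation. KO sham and WT sham hearts were from the same genotypes after sham surgery, whose interval to sampling is not given in the labels. The labels give no strain, sex or age, do not say whether the knockout is confined to the heart, and do not say which piece of the ventricle was taken.

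Small heat shock proteins bind unfolding proteins without using ATP and hold them in a state that can be refolded. Hsp70 proteins then bind and release these clients in an ATP cycle that J-domain proteins such as Dnajb1 start and that exchange factors such as Bag3 and Hsph1 turn over. Under protein damage the transcription factor Hsf1 binds repeated short units, called heat shock elements, in the promoters of many heat shock genes. In heart muscle several small heat shock proteins are present without stress and sit at the Z-disc and on desmin filaments, where Bag3 and Hspb8 pass damaged proteins such as filamin C to autophagy.

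The arrays' median log2 values lay between 5.004 and 5.253 over all 35556 probes. On the second principal component, with 8.56% of the variance, the KO sham arrays stood at -21.2 (replicate 1) and 15.3 (replicate 2). The WT MI arrays stood at 0.629 (replicate 1) and -20.2 (replicate 2). With 2 arrays a group, this distance does not say which array of a pair is unusual. Results that turn on KO sham replicate 1 and WT MI replicate 2, which had the lowest scores, are given without them too. Fbxo32 was 7.90-fold lower in KO MI than in WT MI hearts (log2 fold change -2.98, limma adjusted p = 0.00041) and 14.4-fold lower in KO sham than in WT sham hearts (-3.85, adjusted p = 3.77e-05), and every KO array was below every WT array of its condition. The mean log2 level of 12 cardiomyocyte markers was 12.97 to 12.99 on the KO MI arrays, 12.86 to 12.89 on the WT MI arrays, 13.08 to 13.16 on the KO sham arrays and 13.16 to 13.20 on the WT sham arrays. That of 6 neutrophil markers was 7.79 to 8.31 in KO MI, 9.02 to 9.81 in WT MI, 3.88 to 4.28 in KO sham and 4.04 to 4.21 in WT sham hearts. In bulk tissue a change in the number of cells of a type and a change in RNA per cell cannot be told apart. Since no label ties the arrays of a group to different animals, the spread behind the p-values is that between these arrays and may be technical.

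The promoters of the members were searched for exact pairs of the short units that a heat shock element repeats. Elements with mismatches or gaps would be missed. The stretches below are the last 150 bases before the transcript start in the RefSeq table (GRCm38.p6), on the gene's own strand, with the matches to GAANNTTC or TTCNNGAA in capitals. Hspb1 and the pair Hspa1a and Hspa1b are shown because theirs were the largest changes of the members after infarction. Hsph1 is shown as a gene with a tail-to-tail match that did not pass the test, and Dnajb1 as one that passed in WT hearts with no match.
Hspb1, chr5:135887769-135887918, plus strand: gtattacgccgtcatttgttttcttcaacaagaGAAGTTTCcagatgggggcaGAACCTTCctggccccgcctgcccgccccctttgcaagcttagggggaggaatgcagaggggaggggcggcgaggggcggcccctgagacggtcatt
Hspa1a, chr17:34972157-34972306, minus strand: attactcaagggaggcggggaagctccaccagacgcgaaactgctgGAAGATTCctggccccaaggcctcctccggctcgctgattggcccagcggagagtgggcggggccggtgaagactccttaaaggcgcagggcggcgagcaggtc
Hspa1b, chr17:34959239-34959388, minus strand: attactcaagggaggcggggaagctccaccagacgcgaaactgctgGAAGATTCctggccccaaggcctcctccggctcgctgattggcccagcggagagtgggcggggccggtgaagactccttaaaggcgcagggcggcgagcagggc
Hsph1, chr5:149636337-149636486, minus strand: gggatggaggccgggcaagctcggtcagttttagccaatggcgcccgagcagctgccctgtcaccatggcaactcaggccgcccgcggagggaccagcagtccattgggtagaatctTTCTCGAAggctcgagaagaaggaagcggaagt
Dnajb1, chr8:83608025-83608174, plus strand: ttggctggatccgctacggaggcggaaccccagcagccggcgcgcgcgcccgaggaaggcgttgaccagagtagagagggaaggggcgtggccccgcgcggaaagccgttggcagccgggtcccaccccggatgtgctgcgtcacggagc

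GAANNTTC is the head-to-head and TTCNNGAA the tail-to-tail arrangement of 2 GAA units, and each reads the same on both strands. In the windows of 250 bases before to 50 after a start, at least 1 such pair was found in 7 of the 9 members in the table (77.8%) and in 17% of all 27025 genes. The nearly identical Hspa1a and Hspa1b count separately in the 7, and a gene with several windows counts if any of them holds a pair. The members were chosen as heat shock genes, so their share is a description. In the related families such a pair was found in 4 of 8 other J-domain genes (50%) and 3 of 7 chaperonin subunits (42.9%). It was found in 4 of 11 genes of the Hsp90 system (36.4%) and 1 of 3 other small heat shock proteins (33.3%). The shares were 2 of 6 mitochondrial chaperones (33.3%) and 1 of 8 Bag3 partners and clients (12.5%). None was found in 7 other Hsp70 and Hsp110 genes, 5 other exchange factor genes and 2 heat shock factor or factor-binding genes. Hspb1 held 2 head-to-head pairs, at -117 to -110 and at -97 to -90 from the start. Hspa1a and Hspa1b held 1 each, at -104 to -97, and their windows differed at 3 of the 250 bases before the start (98.8% identical). The match of Hspb6 lay at -120 to -113 in 1 of its 2 listed windows, and the matches of Bag3 (43 to 50) and Hspb8 (3 to 10) lay after the start. Hsph1 held a tail-to-tail pair at -33 to -26 in the window shown. It also held the members' only run of 3 alternating units, made by a tail-to-tail and a head-to-head pair that overlap by 3 bases, at 37 to 49, a pattern found in 0.662% of all genes. Dnajb1 and Hspb7 held no match in these windows, and Cryab had no entry. A match is a run of letters and not a measured binding site.

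**Figure D1:**
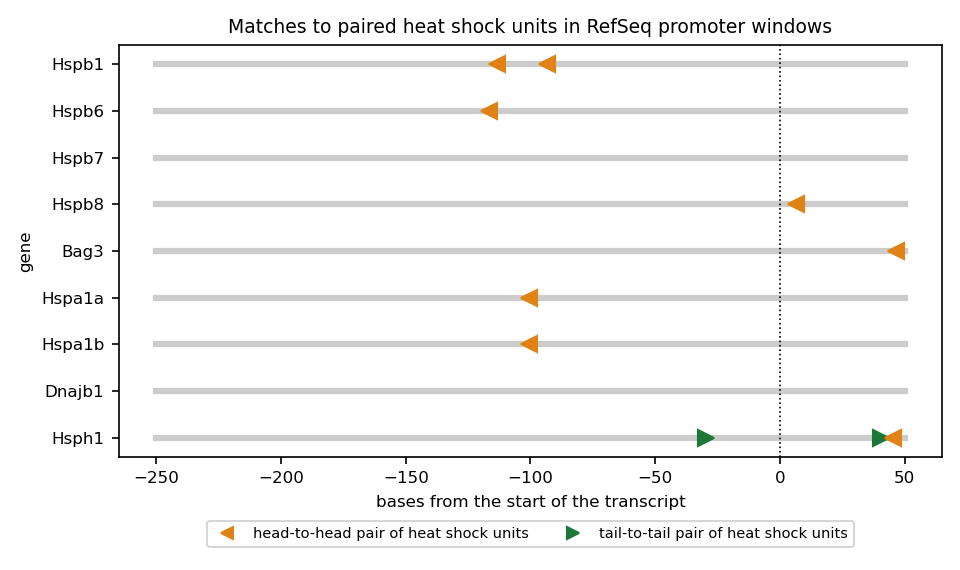
Positions of the paired heat shock units in the RefSeq promoter window of each member (horizontal axis, bases from the transcript start, dotted line at 0; where a gene has several windows, the one with the most matches). Orange triangles are head-to-head and green triangles tail-to-tail pairs. Hspb1 has 2 head-to-head pairs before the start, Hspa1a and Hspa1b have 1 each at the same place, and Hspb7 and Dnajb1 have none.

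The question of the first comparisons is how these genes differed 1 day after infarction in each genotype. In KO hearts 3 of the 9 members rose and none fell, namely Hspb1, Hspa1a and Cryab, against 10.5% of all genes higher and 10.3% lower. In WT hearts 4 of the 9 rose, the same 3 genes and Dnajb1, and none fell, against 12.3% of all genes higher and 15.8% lower. Calls are an adjusted p under 0.05 in limma with Benjamini-Hochberg adjustment over all 19938 genes. The members' median log2 fold change was 0.48 in KO and 0.36 in WT hearts, beside all-gene medians of 0.01 in KO and 0.04 in WT hearts. The 2 comparisons share no arrays, but they come from 1 fit with a spread pooled over all arrays, so they are not independent. The genes were also listed with earlier results known, so the counts describe these 9 genes. Without KO sham replicate 1 and WT MI replicate 2 together, the log2 fold change of Dnajb1 in KO hearts was 0.83 (0.64 with all arrays). That of Hsph1 in WT hearts was then 0.57 (0.13 with all arrays). The choice of array matters, since Hsph1 in WT hearts was -0.32 without WT MI replicate 1.

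**Figure D2:**
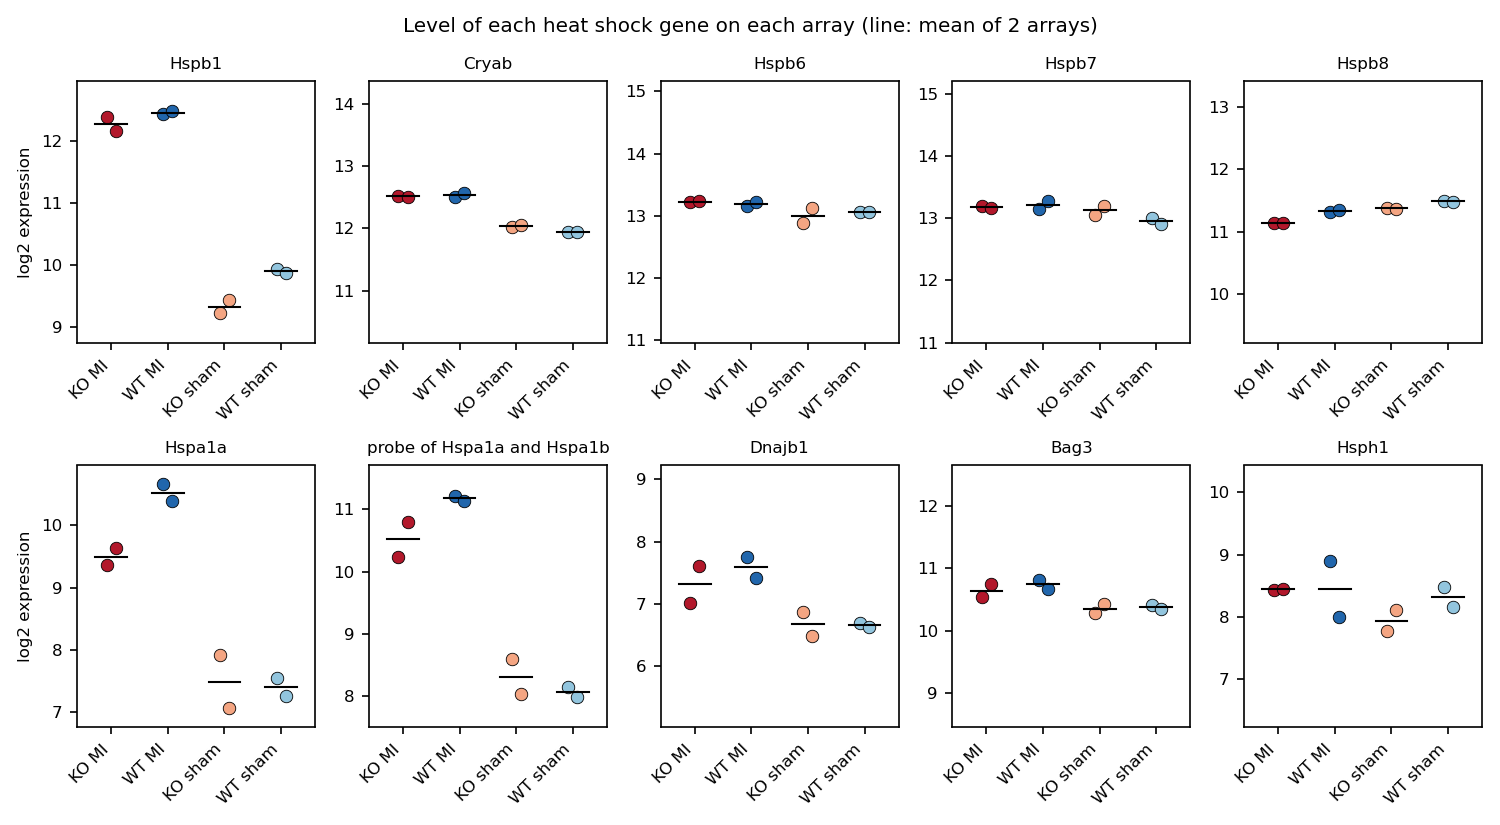
Log2 expression (vertical axis, each panel spanning about the same number of log2 units) of the 9 members with a probe of their own and of the probe shared by Hspa1a and Hspa1b, in KO MI, WT MI, KO sham and WT sham hearts. Each point is 1 array and each line the mean of 2. Hspb1, Hspa1a and the shared probe stand more than 1 log2 unit higher on every MI array than on any sham array, while Hspb6, Hspb7 and Hspb8 stay within a narrow band.

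Hspb1, the small heat shock protein that binds actin and damaged sarcomere proteins, had the largest change of the members in KO hearts. Hspb1 read 12.39 and 12.15 on the KO MI arrays and 12.42 and 12.47 on the WT MI arrays, against 9.23 and 9.43 on the KO sham arrays and 9.95 and 9.87 on the WT sham arrays. No MI array came within 2 log2 units of a sham array. By limma the rise was 7.65-fold in KO hearts (log2 value 2.94 with an SE of 0.13, adjusted p = 2.13e-06) and 5.80-fold in WT hearts (2.54 with an SE of 0.13, adjusted p = 2.16e-06). The other Hspb1 probe gave 7.84-fold in KO and 6.07-fold in WT hearts. Where each of the 2 probes aligns is not given in the files, so they may not be separate measures of the gene, and either may lie on a pseudogene copy. The 2 KO sham arrays were the lowest of all 8.

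Cryab, the alpha B crystallin that holds desmin and titin in shape, changed far less but from arrays that lay close together. The log2 values of Cryab were 12.51 and 12.51 in KO MI hearts and 12.51 and 12.57 in WT MI hearts, against 12.02 and 12.05 in KO sham hearts and 11.95 and 11.94 in WT sham hearts. All 4 MI arrays were above all 4 sham arrays. It rose 1.39-fold in KO hearts (0.48 on the log2 scale with an SE of 0.11, limma adjusted p = 0.015) and 1.51-fold in WT hearts (0.59, SE 0.11, adjusted p = 0.00355). The KO call did not survive leaving out KO MI replicate 1 (adjusted p = 0.0826), KO MI replicate 2 (0.0819) or the WT groups (0.0524), in a range of 0.000852 to 0.0826 over 19 alternatives.

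The other small heat shock proteins of the list did not pass the test in either genotype. Hspb6, a cardiac small heat shock protein phosphorylated by protein kinase A, and Hspb7, a muscle protein that binds filamin C, gave log2 values of about 13 on every array, where the highest value of any gene was 14.31. On the log2 scale Hspb6 stood at 13.22 and 13.24 in KO MI and 13.15 and 13.22 in WT MI hearts, against 12.88 and 13.12 in KO sham and 13.07 and 13.06 in WT sham hearts. All 4 MI arrays were above all 4 sham arrays, but WT MI replicate 1 (13.15) lay close to KO sham replicate 2 (13.12). That gap was smaller than the distance between the 2 KO sham arrays. The test was not passed, with a fitted log2 fold change of 0.23 in KO (95% interval -0.05 to 0.51, adjusted p = 0.255) and 0.12 in WT hearts (-0.16 to 0.40, adjusted p = 0.517). The KO value was 0.11 without KO sham replicate 1 and 0.35 without KO sham replicate 2.

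Hspb7 read 13.20 and 13.17 on the KO MI arrays and 13.15 and 13.28 on the WT MI arrays, against 13.05 and 13.20 on the KO sham arrays and 13.001 and 12.91 on the WT sham arrays. The KO groups overlapped and the WT groups did not. The log2 fold change was 0.06 in KO (95% interval -0.22 to 0.34, limma adjusted p = 0.806) and 0.26 in WT hearts (-0.02 to 0.53, adjusted p = 0.156). With an intensity trend in the prior (adjusted p = 0.0381) or with cyclic loess (0.0305) Hspb7 passed in WT hearts, in a range of 0.0305 to 0.475 over 19 alternatives.

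Hspb8, the partner of Bag3 in selective autophagy, was the only member with a negative value in both genotypes. The log2 values of Hspb8 were 11.15 and 11.13 in KO MI hearts and 11.31 and 11.34 in WT MI hearts, against 11.38 and 11.37 in KO sham hearts and 11.49 and 11.48 in WT sham hearts. Each genotype's MI arrays were below its sham arrays, and replicates lay very close together. The log2 fold change was -0.23 in KO (95% interval -0.49 to 0.02, limma adjusted p = 0.187) and -0.16 in WT hearts (-0.41 to 0.09, adjusted p = 0.335), so neither passed the test.

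The inducible Hsp70 gene Hspa1a had the largest change of the members in WT hearts. On the log2 scale Hspa1a stood at 9.36 and 9.64 in KO MI and 10.66 and 10.39 in WT MI hearts, against 7.91 and 7.06 in KO sham and 7.55 and 7.26 in WT sham hearts. The MI arrays were all above the sham arrays, the KO MI arrays lay between the WT MI and the sham arrays, and the 2 KO sham arrays differed from each other by nearly 1 log2 unit. It rose 4.04-fold in KO hearts (2.01 on the log2 scale with an SE of 0.25, limma adjusted p = 0.00054) and 8.71-fold in WT hearts (3.12, SE 0.25, adjusted p = 2.62e-05). On leaving out each array in turn the log2 value lay between 1.585 and 2.44 in KO and between 2.98 and 3.27 in WT hearts.

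The probe shared by Hspa1a and Hspa1b read 10.24 and 10.81 on the KO MI arrays and 11.22 and 11.14 on the WT MI arrays, against 8.60 and 8.04 on the KO sham arrays and 8.14 and 7.995 on the WT sham arrays. This order of the groups was that of Hspa1a's own probe, again with KO sham replicate 1 above its partner. In a limma fit of all 35556 probes the shared probe rose 4.61-fold in KO hearts (log2 fold change 2.21, adjusted p = 0.00342) and 8.63-fold in WT hearts (3.11, adjusted p = 0.000732). The 2 genes are neighbours on chromosome 17 and nearly identical, so neither the shared probe nor the probe listed for Hspa1a alone can be said to measure 1 of them only.

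Dnajb1, the J-domain protein that delivers clients to Hsp70, passed the test in WT hearts and missed it in KO hearts. The log2 values of Dnajb1 were 7.02 and 7.61 in KO MI hearts and 7.76 and 7.41 in WT MI hearts, against 6.87 and 6.48 in KO sham hearts and 6.69 and 6.63 in WT sham hearts. Every MI array was above every sham array, with KO MI replicate 1 the closest to them. It rose 1.91-fold in WT hearts (0.93 on the log2 scale with an SE of 0.21, limma adjusted p = 0.00896), and this call was lost without WT MI replicate 1 (0.0636) or WT sham replicate 2 (0.0529), in a range of 0.005 to 0.0636 over 19 alternatives. In KO hearts the log2 fold change was 0.64 (95% interval 0.16 to 1.11, adjusted p = 0.0611). It passed there with an intensity trend (0.0462), with the lowest genes left out (0.0456), without KO MI replicate 1 (0.0283) or without KO sham replicate 1 and WT MI replicate 2 together (0.0442), in a range of 0.0283 to 0.402.

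Bag3 links Hsp70 to small heat shock proteins and to autophagy, and its loss is known to cause cardiomyopathy. On the log2 scale Bag3 stood at 10.53 and 10.75 in KO MI and 10.82 and 10.67 in WT MI hearts, against 10.29 and 10.42 in KO sham and 10.41 and 10.36 in WT sham hearts. Both genotypes' MI arrays were above the sham arrays. The log2 fold change was 0.29 in KO (95% interval -0.01 to 0.59, limma adjusted p = 0.166) and 0.36 in WT hearts (0.07 to 0.66, adjusted p = 0.0689). The KO value was 0.40 without KO MI replicate 1 and 0.18 without KO MI replicate 2. In WT hearts it passed with an intensity trend (0.0242), array weights (0.0475), the lowest genes left out (0.0464) or cyclic loess (0.00902), in a range of 0.00902 to 0.267 over 19 alternatives.

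Hsph1 encodes an Hsp110 protein that exchanges the nucleotide of Hsp70. Hsph1 read 8.43 and 8.45 on the KO MI arrays and 8.89 and 8.003 on the WT MI arrays, against 7.77 and 8.11 on the KO sham arrays and 8.48 and 8.16 on the WT sham arrays. The WT MI arrays lay on either side of the WT sham arrays, while the KO MI arrays were above the KO sham arrays. The log2 fold change was 0.50 in KO (95% interval -0.07 to 1.08, limma adjusted p = 0.219) and 0.13 in WT hearts (-0.45 to 0.70, adjusted p = 0.757). Without KO sham replicate 1 and WT MI replicate 2 together the WT value was 0.57 and passed (adjusted p = 0.0406), and without WT MI replicate 1 it was -0.32 (0.285), in a range of 0.0406 to 0.961.

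**Figure D3:**
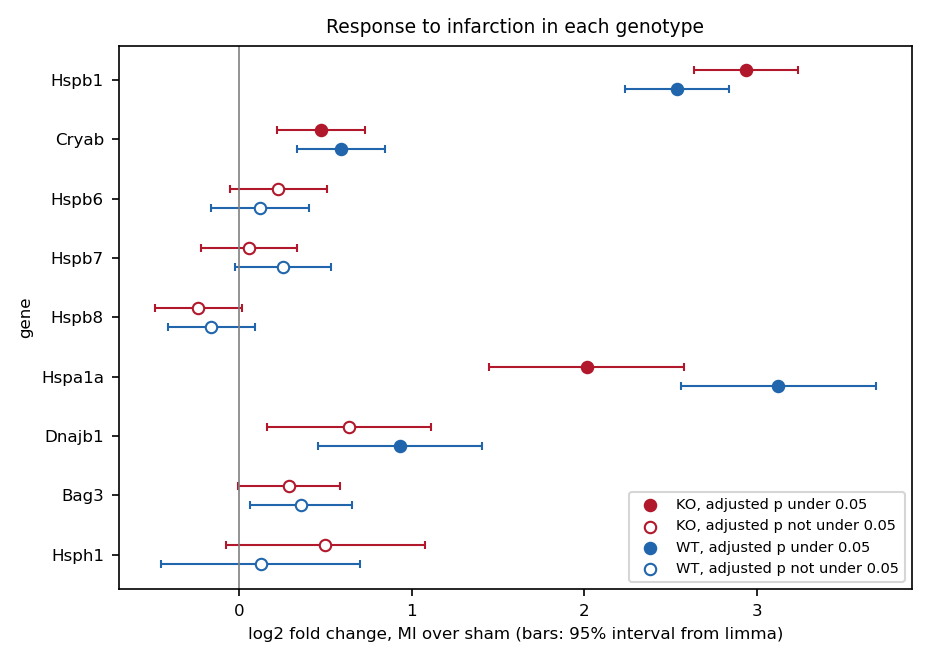
Log2 fold change of MI over sham (horizontal axis) for the 9 members, in KO hearts (red) and in WT hearts (blue), with 95% intervals from limma. Filled points have an adjusted p under 0.05. Hspb1 at 2.94 in KO and 2.54 in WT, and Hspa1a at 2.01 in KO and 3.12 in WT, lie far to the right of the other 7 genes, and Hspb8 is the gene left of 0 in both.

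Leukocyte and cardiomyocyte markers also differed between infarcted and sham hearts. All 6 neutrophil markers rose in KO MI and in WT MI hearts, with a median log2 fold change of 3.94 in KO and 5.20 in WT hearts, and 6 of 8 monocyte and macrophage markers rose in each. Of the 12 cardiomyocyte markers 3 fell in KO MI and 5 in WT MI hearts. Over all genes 10.5% were higher and 10.3% lower in KO, and 12.3% higher and 15.8% lower in WT hearts. The part of leukocytes and cardiomyocytes in the members' differences was not tested.

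The next comparisons ask whether loss of MAFbx went with other levels of these genes. In KO MI against WT MI hearts 0 of the 9 members passed the test, against 0.0702% of all genes, and 1 member had an unadjusted p under 0.05, beside 11.7% of all genes. In KO sham against WT sham hearts 0 of 9 passed, against 0.0301% of all genes, again with 1 member under 0.05 unadjusted, beside 5.1% of all genes. For the KO effect averaged over both conditions 0 of 9 passed, against 0.100% of all genes, with 2 members under 0.05 unadjusted, beside 8.41% of all genes. For the difference of the MI responses 0 of 9 passed, against 0% of all genes, with 1 member under 0.05 unadjusted, beside 8.21% of all genes. These tests are limma's with Benjamini-Hochberg adjustment, and the comparisons share arrays with each other and with those above. Where the arrays of 2 groups do not overlap, the exact permutation p for 2 against 2 is still 0.333, so non-overlap is given as a description.

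Hspa1a carried the largest genotype value. In infarcted hearts it was at 9.36 and 9.64 on the KO arrays, against 10.66 and 10.39 on the WT arrays, and the groups did not overlap. The log2 fold change was -1.03 (95% interval -1.59 to -0.46, SE 0.25, unadjusted p = 0.00242, limma adjusted p = 0.188). The shared Hspa1a and Hspa1b probe gave -0.66 (adjusted p = 0.528), with both KO MI arrays below both WT MI arrays, and it was -0.37 without KO MI replicate 1 and -0.94 without KO MI replicate 2. For the difference of the MI responses, KO minus WT, Hspa1a had a value of -1.11 (95% interval -1.91 to -0.31, adjusted p = 0.519), and it lay between -1.54 and -0.68 on leaving out each array in turn. In the same infarcted hearts the 6 neutrophil markers were each lower in KO, by a median of -1.17 on the log2 scale, with 0 of 6 past the limma threshold, and the part of this in the Hspa1a value was not tested.

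Hspb1 had its largest genotype value in sham hearts. On the sham arrays it read 9.23 and 9.43 in KO, against 9.95 and 9.87 in WT, and the groups did not overlap. The log2 fold change was -0.58 (95% interval -0.88 to -0.27, SE 0.13, unadjusted p = 0.00176, limma adjusted p = 0.377). The other probe listed for Hspb1, which may not be a separate measure, gave -0.54. Over 19 alternatives the value stayed between -0.68 and -0.47, with adjusted p-values of 0.142 to 1. The 5 smooth muscle markers also had negative values in KO sham hearts, from -1.67 to -0.05 on the log2 scale. The value nearest to 0 was that of Abcc9, whose KO and WT arrays overlapped. The mean log2 levels of the markers were 7.83 and 8.01 on the KO arrays against 8.60 and 9.42 on the WT arrays. None of the 5 passed the test (median -1.05), and their part in the Hspb1 value was not tested. In infarcted hearts the value was -0.18 (95% interval -0.48 to 0.12, adjusted p = 0.66), with -0.29 without KO MI replicate 1 and -0.060 without KO MI replicate 2. Averaged over both conditions it was -0.38 (-0.59 to -0.16, adjusted p = 0.28). The difference of the MI responses, KO minus WT, was 0.40 (-0.03 to 0.82, adjusted p = 0.636), the opposite sign to that of Hspa1a.

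The remaining members had genotype values nearer to 0. In infarcted hearts Hspb8 had -0.19 (95% interval -0.44 to 0.06, limma adjusted p = 0.569), with both KO arrays below both WT arrays, as they also were in sham hearts (-0.11). Dnajb1 had -0.27 (-0.74 to 0.20, adjusted p = 0.673) and Bag3 -0.10 (-0.39 to 0.20, adjusted p = 0.828), each with overlapping arrays. Hsph1 had -0.01 (-0.58 to 0.57) in infarcted and -0.38 (-0.95 to 0.19) in sham hearts, where both KO arrays were below both WT arrays and leaving out 1 of the 4 sham arrays gave -0.55 to -0.21. Cryab, Hspb6 and Hspb7 lay between -0.03 and 0.04 in infarcted and between -0.07 and 0.17 in sham hearts. In infarcted hearts 8 of the 9 values were below 0, with a median of -0.10 beside an all-gene median of 0.00, and in sham hearts 5 of 9 were, with a median of -0.03.

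**Figure D4:**
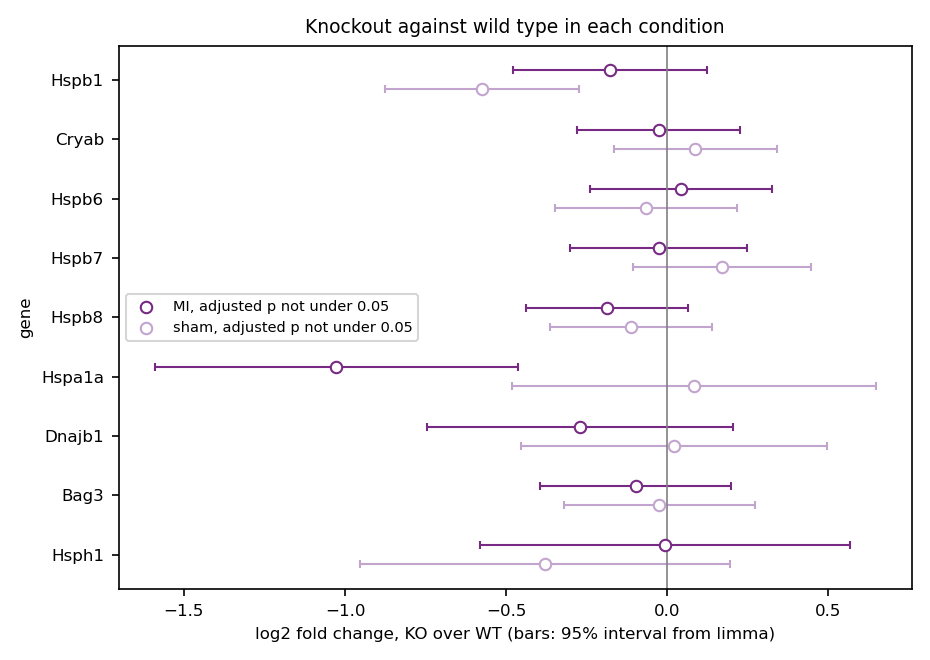
Log2 fold change of KO over WT (horizontal axis) for the 9 members in MI hearts (dark) and sham hearts (light), with 95% intervals from limma. All points are open because no adjusted p was under 0.05. The intervals that do not reach 0 are those of Hspa1a in MI hearts, centred on -1.03, and of Hspb1 in sham hearts, centred on -0.58.

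Related chaperones place the members among the rest of the folding machinery. Of 4 other small heat shock proteins Hspb2, the muscle chaperone whose gene is the neighbour of Cryab on chromosome 9, rose in both genotypes. Among all genes 10.5% were higher in KO and 12.3% in WT hearts. The log2 values of Hspb2 were 9.63 and 9.60 in KO MI hearts and 9.54 and 9.58 in WT MI hearts, against 8.42 and 8.60 in KO sham hearts and 8.57 and 8.58 in WT sham hearts. It rose 2.15-fold in KO (limma adjusted p = 0.000252) and 1.98-fold in WT hearts (adjusted p = 0.000271), with no overlap between MI and sham arrays. Hspb3, Hspb9 and Cryaa did not pass in either genotype, with log2 fold changes of -0.28, 0.17 and 0.32 in KO and -0.56, 0.34 and 0.07 in WT hearts.

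Of 14 measured members of the Hsp90 system 6 rose and 0 fell in KO hearts, and 3 rose and 2 fell in WT hearts, with 3 to 8 called in KO and 3 to 6 in WT hearts over the alternatives. The shares over all genes were 10.5% higher and 10.3% lower in KO, and 12.3% higher and 15.8% lower in WT hearts. The inducible Hsp90 gene Hsp90aa1 rose 2.34-fold in KO (adjusted p = 0.000156, limma) and 2.48-fold in WT hearts (adjusted p = 6.31e-05). Fkbp5, a co-chaperone of steroid receptors and a known glucocorticoid target, rose 3.12-fold in KO (adjusted p = 3.92e-05) and 6.22-fold in WT hearts (adjusted p = 1.51e-06). Stip1, which joins Hsp70 to Hsp90, rose 1.71-fold in KO hearts (log2 fold change 0.78, adjusted p = 0.00616), with 0.26 in WT hearts (adjusted p = 0.247). The falls in WT hearts were those of Fkbp4, another receptor co-chaperone (-0.85, with -0.33 in KO hearts), and Unc45b, the myosin chaperone (-0.59, with -0.06 in KO hearts). Both calls were lost without either WT sham array, that of Fkbp4 also without WT MI replicate 2 and that of Unc45b also without WT MI replicate 1.

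The cytosolic chaperonin, the ring that folds actin and tubulin, had 7 of its 8 subunits past the test and higher in KO hearts, and 6 of 8 in WT hearts. Over all genes 10.5% were higher in KO and 12.3% in WT hearts. The median log2 fold change of the subunits was 0.81 in KO and 0.64 in WT hearts. Cct3 rose 2.09-fold in KO and 1.85-fold in WT hearts, and Cct2 rose 1.73-fold in KO and 1.60-fold in WT hearts. Both genes passed the test in both genotypes under every alternative run. The count of subunits past the test moved between 5 and 8 in KO and between 4 and 8 in WT hearts over the alternatives.

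Calls among the other Hsp70 and Hsp110 genes went in both directions, as they did over all genes. Of all genes tested 10.5% were higher and 10.3% lower in KO hearts, and 12.3% higher and 15.8% lower in WT hearts. Of 9 other Hsp70 and Hsp110 genes 2 rose and 1 fell in KO hearts, and 1 rose and 2 fell in WT hearts, with 1 to 6 called in KO and 2 to 5 in WT hearts over the alternatives. Hspa8, the constitutive cytosolic Hsp70, had log2 fold changes of 0.42 in KO and 0.35 in WT hearts and did not pass (limma adjusted p = 0.0926 in KO and 0.127 in WT). Hspa12a, a distant relative of Hsp70, fell, with log2 fold changes of -1.35 in KO and -1.63 in WT hearts (adjusted p = 0.00108 in KO and 0.000223 in WT). Hspa4l, an Hsp110 relative of Hsph1, fell by 0.84 in WT hearts (adjusted p = 0.00253), with -0.29 in KO hearts (adjusted p = 0.228). The rise of Hspa4, an Hsp110 protein, was 0.59 in KO and 0.46 in WT hearts. Its call in KO hearts was lost without either KO MI array or KO sham replicate 1, and in WT hearts without WT MI replicate 1, either WT sham array or either KO MI array.

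Among 8 other J-domain genes 2 rose in KO hearts (Dnaja4 and Dnajb4), and 1 rose (Dnajb4) and 1 fell (Dnajb5) in WT hearts. Beside this and the next lists, the shares of all genes were 10.5% higher and 10.3% lower in KO hearts. In WT hearts those shares were 12.3% higher and 15.8% lower, and the counts describe these few genes only. Of 6 other BAG and exchange factor genes Bag2, which inhibits the ligase that marks Hsp70 clients, rose 1.72-fold in KO hearts (log2 fold change 0.78), with 0.50 in WT hearts (limma adjusted p = 0.0523). Hspbp1 fell by 0.62 on the log2 scale in WT hearts, with -0.10 in KO hearts (adjusted p = 0.705). Among 7 mitochondrial chaperones 2 rose in KO hearts (Grpel1 and Hspe1), and 1 rose (Hspe1) and 1 fell (Dnaja3) in WT hearts. Each call in these 3 lists was lost on leaving out at least 1 array, Bag2 and Grpel1 without KO MI replicate 1. Of the 3 measured genes in the heat shock factor list 0 passed in either genotype, with limma values between -0.28 and 0.28. These were Hsf2, Hsf4 and Hsbp1, which encodes a protein that binds heat shock factors. Hsf1 had no probe of its own.

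Partners and clients of Bag3 were also followed. Flnc, the filamin at the Z-disc that Bag3 clears, stood at 12.52 and 12.36 on the KO MI arrays and 12.63 and 12.52 on the WT MI arrays, against 10.44 and 10.73 on the KO sham and 10.77 and 10.73 on the WT sham arrays. It rose 3.62-fold in KO (limma adjusted p = 2.6e-05) and 3.54-fold in WT hearts (adjusted p = 1.89e-05). Synpo2, which works with Bag3 in forming the autophagosome around filamin, fell, with log2 fold changes of -0.80 in KO and -1.08 in WT hearts. Of the 8 genes in this list 3 rose and 1 fell in KO hearts, and 2 rose and 1 fell in WT hearts. The all-gene shares were 10.5% higher and 10.3% lower in KO, and 12.3% higher and 15.8% lower in WT hearts. The autophagy receptor Sqstm1 (0.48 in KO, 0.59 in WT) and, in KO hearts, desmin (Des, 0.62, with 0.39 in WT) made up the other rises, and the call of Des was lost without KO MI replicate 1. That of Sqstm1 was lost in WT hearts without WT sham replicate 2, and in KO hearts without either KO MI array, either WT sham array or KO sham replicate 1, and also with array weights, with the replicate block and with the KO groups fitted alone. Over the alternatives 2 to 4 of the 8 were called in either genotype. None of the genes in these chaperone lists passed in a genotype comparison in the limma fit. Among the members and these lists 16 genes passed after MI in 1 genotype and missed in the other, and the difference of their MI responses passed for 0 of the 16 (adjusted p from 0.568 to 0.813, with 5 of the 16 under 0.05 unadjusted). These genes were picked by the same MI comparisons, so that count is a description.

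**Figure D5:**
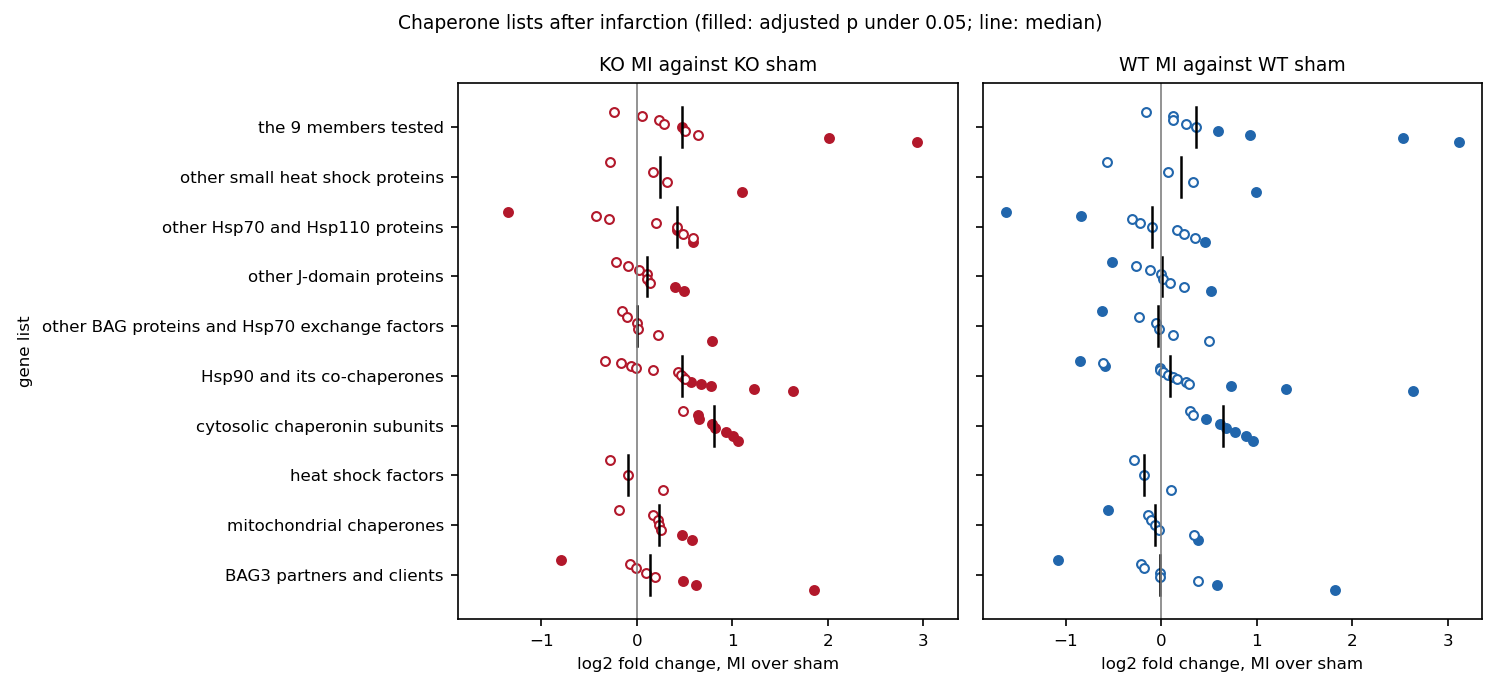
Log2 fold change of MI over sham (horizontal axis) for each gene of the members and of the 9 other chaperone lists, in KO hearts (left) and WT hearts (right). Points are genes, filled where the adjusted p was under 0.05, and each black line is the list's median. All 8 chaperonin subunits lie right of 0 in both panels, and the members reach farther right than any other list.

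Across the 8 arrays the genes whose log2 profiles were most like that of Hspb1 were Ehd4 (Pearson r = 0.999), Glipr2 (0.998), Lfng (0.996), Pi15 (0.996) and Ccl9 (0.996). For Bag3 they were Isg20 (0.983), Olfr1448 (0.976), 1700084J12Rik (0.976), Cmtm6 (0.974) and Cers6 (0.974). The infarcted and sham arrays form separate clusters, so these values carry that separation and are given as a description.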

How the data were processed

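The deposited values are log2 expression values for 35556 probes, deposited by the authors after RMA in Affymetrix Expression Console; per the submitters' processing notes these tools carry no version. RMA usually includes quantile normalization, which would shrink a shift common to most genes. Groups came from the genotype and condition labels. GEO's platform annotation named 1 gene for 21789 probes and several for 1621; the other 12146 are unnamed here. Of the 1-gene probes 21698 matched a RefSeq gene by Entrez ID, 91 did not, and 0 symbols changed. The probe with the highest mean was taken for the 999 genes with more than 1, which left 19938 genes with no filter on low values.

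One limma fit (3.58.1, R 4.3.3) held all 8 arrays in 4 group means, with 4 residual and 5.57 prior degrees of freedom, two-sided tests, Benjamini-Hochberg adjustment over all genes and an adjusted p under 0.05. The averaged KO effect is the mean of the KO effects in both conditions. The smallest exact permutation p for 2 against 2 is 0.333, so p-values come from the model, and precision is limited by the few arrays. The code was tested on simulated data. Promoter matches were counted in 32851 RefSeq windows of GRCm38.p6 in Python 3.11.15, and figures were drawn with matplotlib 3.10.9.

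The members, lists and tests were chosen with earlier results of these data known. Named were every member, up to 4 genes of each list with the smallest p in each MI comparison, the 5 genes most like Hspb1 and Bag3 by Pearson correlation, and Fbxo32; the same was planned for Hspa1b, which has no probe of its own. Unc45b was named after its values were seen. Lists held chaperone families and markers of cardiomyocytes, neutrophils, monocytes and macrophages, endothelium, smooth muscle and fibroblasts. Of the last 3, 3 of 6 endothelial, 2 of 5 smooth muscle and 1 of 5 fibroblast markers fell in KO MI hearts. In WT MI hearts 2, 4 and 2 fell, with 0 higher in either genotype. Over all genes 10.3% fell in KO and 15.8% in WT MI hearts.

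Alternatives were an intensity trend, a robust prior, array weights, removing the lowest genes by mean level (1 in 3), averaging the probes of a gene, testing all probes, cyclic loess, centring on the median, a block for replicate number, fitting the compared groups alone, and leaving out each array or KO sham replicate 1 with WT MI replicate 2.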

Additional observations from a re-analysis of the deposited data

How the results depend on the processing

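Hspb1 and Hspa1a stayed called in both genotypes, and Cryab in WT hearts, under all 19 alternatives. The count of members called was 2 to 4 in KO and 3 to 6 in WT hearts against sham, and 0 in the 4 genotype comparisons throughout. Replicate numbers are shared by the groups, but the labels do not say that they pair samples, and the deviations of same-numbered arrays correlated between -0.187 and 0.156. With the replicate block the counts of members called were again 3 in KO and 4 in WT hearts, and the counts over all genes were 5 for KO MI against WT MI (14 without it) and 7 for the averaged KO effect (20).

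The members' median moved to 0.53 in WT hearts with cyclic loess, and to -0.17 for KO MI against WT MI and -0.19 for the difference of the responses. Without KO sham replicate 1 and WT MI replicate 2 together the medians were 0.33 in KO, 0.56 in WT, -0.11 for KO against WT in sham, -0.17 in MI and -0.21 for the difference. Leaving out each array gave medians of 0.33 to 0.48 in KO, 0.32 to 0.56 in WT, -0.11 to 0.00015 for KO against WT in sham, -0.17 to -0.0301 in MI, -0.11 to 0.0028 for the difference and -0.15 to -0.0079 for the averaged effect.

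Values that were not called changed sign as follows, and the cause was not tested. With cyclic loess Bag3 in sham was 0.021 and Hspb6 averaged was 0.011. With both arrays left out Hspb7 in KO hearts was -0.017. In sham KO against WT, Hspb6 was then 0.056, Bag3 0.044, Hspa1a -0.34, Dnajb1 -0.17 and the shared probe -0.031. In MI, Hspb7 was 0.037 and Cryab 0.0051. The difference for Hsph1 was -0.24 and the averaged Hspb6 0.066. On leaving out single arrays the ranges were -0.32 to 0.57 for Hsph1 in WT hearts and -0.017 to 0.14 for Hspb7 in KO hearts. In sham they were -0.094 to 0.044 for Bag3, -0.19 to 0.056 for Hspb6, -0.34 to 0.51 for Hspa1a, -0.17 to 0.21 for Dnajb1 and -0.031 to 0.53 for the shared probe. In MI they were -0.21 to 0.012 for Bag3, -0.56 to 0.024 for Dnajb1, -0.45 to 0.44 for Hsph1, -0.092 to 0.037 for Hspb7 and -0.059 to 0.0051 for Cryab. For the difference they were -0.18 to 0.037 for Bag3, -0.59 to 0.0028 for Dnajb1, -0.0695 to 0.82 for Hsph1 and -0.013 to 0.23 for Hspb6. For the averaged effect they were -0.27 to 0.023 for Dnajb1, -0.42 to 0.029 for Hsph1 and -0.072 to 0.049 for Hspb6.

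Over all genes the count called was 2246 to 4723 in KO hearts (4142 as reported), 3457 to 6483 in WT hearts (5609), 3 to 34 for KO against WT in sham (6), 2 to 63 in MI (14), 0 to 4 for the difference (0) and 3 to 39 averaged (20). In the smaller chaperone lists the counts called were 0 to 2 J-domain genes in both genotypes, 0 to 1 exchange factor genes in KO and 0 to 2 in WT hearts, 0 to 2 mitochondrial chaperones in KO and 0 to 3 in WT hearts, and 0 to 1 heat shock factors in KO and 0 in WT hearts. The heat shock factor count includes Hsbp1, which encodes a protein that binds heat shock factors. With 2 arrays a group, small differences are not resolved.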
